A study of Mus musculus with 8 samples.

Results

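The Kmt2 (Mll) methyltransferases and the subunits they share were followed in Paneth cells in which one of them, Mll1 (gene symbol Kmt2a), had been deleted by conditional mutagenesis. The 10 genes were chosen by name and not by a cut on their values, though earlier results of these data were known. They were the 6 catalytic genes Kmt2a, Kmt2b, Kmt2c, Kmt2d, Setd1a and Setd1b, the Mll1 and Mll2 partners Men1 and Psip1, and the core subunits Ash2l and Wdr5. All 10 were found among the 53801 genes of the count table, and all 10 passed the filter on low counts, as did 13439 genes in total.

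Viable EpCAM+ Cd24+ cells had been isolated by FACS from small intestinal crypts, 300 cells per sample, and their polyadenylated RNA was sequenced after Smart-seq2 amplification. Controls were 4 samples labelled β-cat GOF; Mll1+/- and knockouts 4 samples labelled β-cat GOF; Mll1-/-. The sample titles hold 7 animal numbers for the 8 libraries, since control 4 and knockout 4 were given 1 number between them. A single animal cannot have both genotypes, so the number or a genotype label of these libraries is in doubt. How the shared number arose is not given in the sources used here. The study describes the mice of each genotype as independent, and a fit without both libraries is given beside the calls. Both genotypes carried Lgr5-EGFP-IRES-CreERT2, which drives a tamoxifen-inducible Cre recombinase from the promoter of the stem cell gene Lgr5, and a β-catenin allele that loses exon 3 upon recombination and then encodes stabilized β-catenin. In both, recombination deletes at least 1 allele of Mll1, so that no group here is designed to keep Mll1 intact, and none lacks the β-catenin allele. Mice were 4 to 6 weeks old at induction, received 1 mg tamoxifen per injection on 3 consecutive days according to the labels, and were dissected 10 days later. Their strain background is not given in the sources used here, and both sexes were present in both genotypes. Cre under the Lgr5 promoter recombines a mosaic of crypts, and the sorting gate did not include a marker of recombination, and the share of recombined cells in a library was not measured here. The study describes the crypt cells of the knockouts, Paneth cells included, as deficient for Mll1 by protein staining when they were sorted; the staining is not analysed here. The methods paragraph on sorting names Mll1 flox littermates without mention of the β-catenin allele, and the genotypes used here are those of the labels and of the study's description of the sequencing.

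Mll-type enzymes methylate lysine 4 of histone H3, a mark of active promoters and enhancers. Mll1 and its closest relative Mll2 (Kmt2b) bind menin (Men1) and the chromatin reader Ledgf (Psip1), and act at promoters of developmental genes. Mll3 (Kmt2c) and Mll4 (Kmt2d) act mainly at enhancers, whereas Setd1a and Setd1b carry out much of the methylation at active promoters. All 6 work on a common scaffold that includes Wdr5 and Ash2l, without which their catalytic activity is weak. Paneth cells are long-lived secretory cells of the crypt base that release antimicrobial peptides and supply niche signals to stem cells.

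Totals lay between 13037832 and 14380240 counts per library, and every control total was above every knockout total. The TMM factors that scale these totals were 0.822 to 1.15 in controls. They were 1.28, 1.34 and 1.22 in knockouts 1, 2 and 4, and 0.632 in knockout 3. After this scaling, knockouts 1, 2 and 4 were above every control and knockout 3 was below every control. Paneth cell markers dominated every library: the 10 markers together reached 269620 to 539336 in controls, in CPM scaled with TMM factors (normalized CPM), and 246519 to 763895 in knockouts. Summed goblet markers were at 9263 to 17746 and 7871 to 18981, stem cell markers at 572 to 1266 and 210 to 831, and enteroendocrine markers at 143 to 643 and 17.9 to 178 normalized CPM. Spink4 was the largest part of the goblet sum (7479 to 13457 and 6207 to 14935). Olfm4 was that of the stem cell sum (448 to 1120 and 103 to 686). The other stem cell markers did not all follow Olfm4. Lgr5 was at 42.8 to 50.9 and 37.2 to 55.5, and Smoc2 at 48.4 to 61.5 and 47.8 to 56.3. Ascl2 was at 4.58 to 11.5 and 2.23 to 6.53, and Axin2 at 14.8 to 31.2 and 20.1 to 53.1. Knockout 3 stood apart, with counts for 19662 genes against 22623 to 26074 in the other libraries, 2.04% mitochondrial counts against 3.26% to 8.78%, the highest Paneth sum and the lowest stem cell sum. It also held signals of both sexes, with 1037 Xist and 148 Y-linked counts. Among the other libraries, controls 1, 2 and 4 and knockout 4 had 1055 to 2697 Xist counts with 6 to 22 Y-linked counts. Control 3 and knockouts 1 and 2 had 1 to 6 Xist counts with 881 to 1375 Y-linked counts. The sexes were thus unevenly split between the genotypes. The libraries carry 2 runs of label numbers; controls 1 and 2 and knockouts 1 and 2 belong to the first run and the other 4 libraries to the second. The labels do not say what the runs are.

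All 10 transcripts were present in all 8 libraries. None of the 10 was called as changed between genotypes: 0 of 10 passed an adjusted p of 0.05 with a log2 fold change of at least 0.5, where 0.186% of all tested genes did (edgeR's quasi-likelihood test, Benjamini-Hochberg adjustment over all tested genes). At a 10% false discovery rate the count was again 0 of 10, against 0.283% of all genes. An unadjusted p under 0.05 was reached by 0 of 10, against 6.88% of all genes, and in 0 of 10 did the 4 knockouts lie apart from the 4 controls, against 4.52%. With DESeq2's Wald test 0 of 10, and with limma-voom with quality weights 1 of 10 (Psip1), had an unadjusted p under 0.05. Neither tool called a member, where they called 138 and 95 of all 13439 tested genes. Their shares of all genes with an unadjusted p under 0.05 are not given here. Without control 4 and knockout 4, again 0 of 10 were called or had an unadjusted p under 0.05 (edgeR), where 11 of 13555 tested genes were called. With backgrounds this low, a count of 0 among 10 genes does not set the members apart from other genes. Of the 10 fold changes 4 were above 0 and 6 below, with a median of -0.04 on the log2 scale against 0.01 for all tested genes. In these bulk samples, fewer cells with a transcript and less transcript per cell cannot be told apart.

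**Figure D1:**
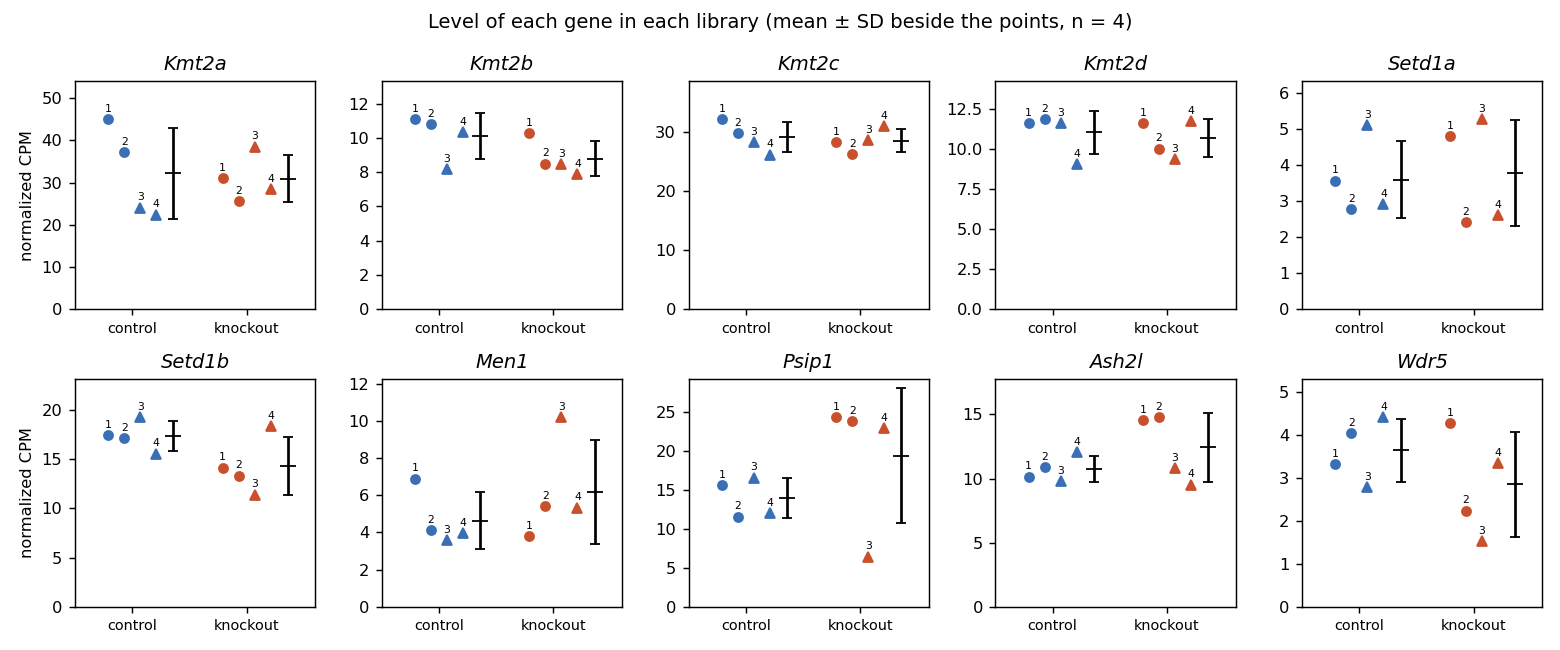
Level of each of the 10 genes in normalized CPM in each library, with controls in blue and knockouts in orange, replicate numbers above the points, circles for the first run of label numbers and triangles for the second, and mean ± SD (n = 4) as bars. The genotypes overlap in every panel; Psip1 is between 23.0 and 24.4 in 3 knockouts and at 6.46 in knockout 3.

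The targeted gene, Kmt2a (ENSMUSG00000002028, mm10 chr9:44803355-44881296, minus strand), was read at 719, 469, 268 and 284 counts in controls 1 to 4 and at 523, 447, 328 and 468 counts in knockouts 1 to 4. In normalized CPM these were 45.1, 37.2, 24.1 and 22.4 in controls and 31.1, 25.7, 38.5 and 28.4 in knockouts. All 4 knockouts thus lay within the range of the controls. The means were 32.2 ± 10.8 and 30.9 ± 5.54 normalized CPM (SD, n = 4), and the log2 fold change was -0.06 ± 0.24 (SE, edgeR adjusted p = 0.995), with a 95% interval from 0.663- to 1.38-fold. The sign turned positive without control 1 (0.15), without control 2 (0.0099) or without knockout 2 (0.015).

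These counts sum reads over 16670 exon bases of Kmt2a and do not read the deleted exon alone, so they do not check the genotype, nor do they measure Mll1 protein. Which exon is deleted is not given in the sources used here. The study's primer pair for Mll1 mRNA is shown because it reads single positions of the transcript, which the summed counts do not separate. Both primers are given 5′ to 3′ with all letters in lower case because no part is singled out:
Mll1_fwd: tgagctgcagatgactggtta
Mll1_rev: ccagagcatcagaggagagc
The reverse primer matched 3 of 6 annotated Kmt2a transcripts, at chr9:44814690-44814709, which is exon 30 of the longest one. The forward primer matched 1 of 6, the transcript Kmt2a-204, which is annotated as subject to nonsense-mediated decay, at chr9:44817684-44817704 in its exon 2. On Kmt2a-204 the pair spans 221 bases, and neither primer matched a transcript of another gene. For a transcript without a match, only the absence of these letters as 1 unbroken run was found.

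The Kmt2a values differed with the run of label numbers. In the first run both controls (45.1 and 37.2) were above both knockouts (31.1 and 25.7), a log2 ratio of means of -0.54, whereas in the second run both controls (24.1 and 22.4) were below both knockouts (38.5 and 28.4), a log2 ratio of 0.53. The relation between genotype and Kmt2a level therefore did not hold within the runs in one direction. The difference between the runs was 1.06 on the log2 scale with an unadjusted p of 0.011, but not past the threshold over all tested genes (adjusted p = 0.867, edgeR interaction term, chosen after the values had been seen). Kmt2c showed the same arrangement on a smaller scale, with log2 ratios of -0.19 and 0.13 (adjusted p of the difference 0.907). Such opposite placement without overlap was found in 6.23% of all tested genes, and in 2 of the 10 members.

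Kmt2b (ENSMUSG00000006307, chr7:30568858-30588726), the paralogue of Kmt2a, was at 11.1, 10.8, 8.17 and 10.3 normalized CPM in controls and at 10.3, 8.5, 8.46 and 7.89 in knockouts. The 3 lowest knockouts lay near control 3, and the groups overlapped. Its log2 fold change was -0.20 ± 0.21 (95% interval -0.66 to 0.26, adjusted p = 0.943), and it was below 0 in both runs (-0.22 and -0.18).

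Kmt2c (ENSMUSG00000038056, chr5:25271798-25498783) had the smallest SD relative to its mean of the 10 genes in both genotypes. It was at 32.2, 29.8, 28.4 and 26.2 normalized CPM in controls and at 28.3, 26.2, 28.7 and 31.0 in knockouts, a spread of 8.67% and 6.83% of the mean (SD). Both genotypes spanned nearly the same range, with a log2 fold change of -0.03 ± 0.15 (95% interval -0.37 to 0.30, adjusted p = 0.995).

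Kmt2d (ENSMUSG00000048154, chr15:98831669-98871204) was at 11.7, 11.9, 11.7 and 9.08 normalized CPM in controls and at 11.6, 10.0, 9.40 and 11.8 in knockouts. Control 4 was the lowest library, and the other 3 controls lay between 11.7 and 11.9. Kmt2d had a log2 fold change of -0.05 ± 0.20 (95% interval -0.48 to 0.39, adjusted p = 0.995).

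Setd1b (ENSMUSG00000038384, chr5:123142193-123168629) was at 17.4, 17.1, 19.3 and 15.5 normalized CPM in controls and at 14.1, 13.3, 11.4 and 18.4 in knockouts. Of the knockouts, 3 were below every control and knockout 4 was above 3 of the 4 controls. The log2 fold change was -0.27 ± 0.20 (95% interval -0.70 to 0.15, adjusted p = 0.890), below 0 in both runs (-0.33 and -0.23). Without knockout 4 it was -0.42 with an unadjusted p of 0.060.

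Setd1a (ENSMUSG00000042308, chr7:127776670-127800122) was at 3.57, 2.78, 5.12 and 2.92 normalized CPM in controls and at 4.81, 2.41, 5.29 and 2.61 in knockouts. Both genotypes spread over nearly the same range, and the log2 fold change of 0.06 ± 0.37 had a wide 95% interval (-0.75 to 0.87, adjusted p = 0.995). These counts are uncertain. Of its 6795 exon bases 52.3% are shared with other genes, 51.8% with Gm49388 on the same strand, a gene that was listed at 0 counts in all 8 libraries. How reads in shared bases were assigned is not given in the sources used here.

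**Figure D2:**
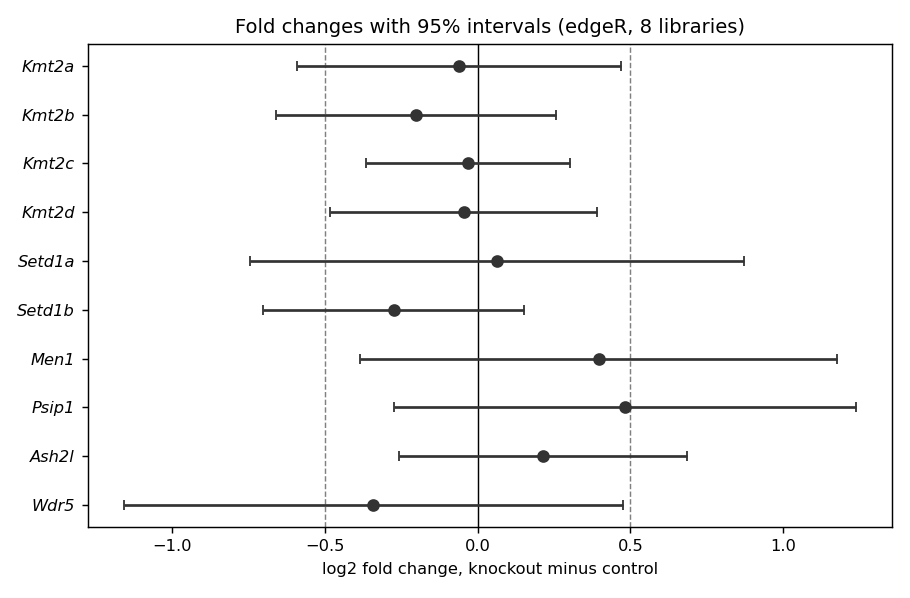
Log2 fold change of each gene (knockout minus control, points) with its 95% interval (bars) from edgeR over 8 libraries; dashed lines mark 0.5 in either direction. All 10 intervals cross 0, and the points lie between -0.34 and 0.48.

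Psip1 (ENSMUSG00000028484, chr4:83455680-83486459), which encodes the chromatin reader Ledgf that ties Mll1 and menin to chromatin, had the largest fold change above 0 among the 10 genes. It was at 15.7, 11.6, 16.6 and 12.1 normalized CPM in controls and at 24.4, 23.8, 6.46 and 23.0 in knockouts. Knockouts 1, 2 and 4 were thus above every control, and knockout 3 was below every control. The log2 fold change over all libraries was 0.48 ± 0.35 (95% interval -0.27 to 1.24, adjusted p = 0.893). Without knockout 3 it was 0.76 ± 0.18 with an adjusted p of 0.078, which passed a 10% false discovery rate but not the 5% threshold; over 19 alternative fits the adjusted p lay between 0.078 and 1.00. Knockout 3 is the library with the fewest genes, the lowest share of mitochondrial counts and signals of both sexes, and the part of this in its Psip1 value was not tested. The difference was 0.82 in the first run, where both knockouts were above both controls, and 0.04 in the second, which holds knockout 3. Of the exon bases of Psip1 9.50% are shared with Snapc3 on the other strand.

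Men1 (ENSMUSG00000024947, chr19:6334979-6340891), which encodes menin, was at 6.89, 4.13, 3.59 and 3.95 normalized CPM in controls and at 3.80, 5.4, 10.2 and 5.34 in knockouts. Here knockout 3 was the highest library. Men1 had a log2 fold change of 0.40 ± 0.36 (95% interval -0.39 to 1.18, adjusted p = 0.924), which was 0.05 without knockout 3. The log2 ratio of means was -0.26 in the first run and 1.05 in the second.

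Of the core subunits, Ash2l (ENSMUSG00000031575, chr8:25815996-25847694), a scaffold protein that stimulates methyltransferase activity, was at 10.2, 10.9, 9.78 and 12.1 normalized CPM in controls and at 14.6, 14.8, 10.8 and 9.52 in knockouts. Knockouts 1 and 2 were above every control, and knockouts 3 and 4 were not. Its log2 fold change was 0.21 ± 0.22 (95% interval -0.26 to 0.69, adjusted p = 0.943), with 0.48 in the first run and -0.10 in the second.

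Wdr5 (ENSMUSG00000026917, chr2:27515157-27536535), the adaptor that docks the catalytic subunit, was at 3.32, 4.05, 2.78 and 4.42 normalized CPM in controls and at 4.28, 2.24, 1.53 and 3.34 in knockouts. Knockouts 2 and 3 were below every control. The log2 fold change was -0.34 ± 0.37 (95% interval -1.16 to 0.47, adjusted p = 0.95), on 13 to 72 counts per library, and it was -0.60 without knockout 1 and -0.15 without knockout 3. The 13 counts in knockout 3 were the lowest value of any member in any library.

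Levels of different genes were next compared per length, as normalized CPM per kilobase of exon. The cDNA was made with a dT primer, and the longest transcripts run from 2890 (Wdr5) to 19823 bases (Kmt2d). Whether reads cover such transcripts evenly was not tested. The order is thus one of counts per length and not of transcript numbers. Psip1 was highest with a mean of 3.29 ± 1.30 (SD over 8 libraries), followed by Kmt2a with 1.89 ± 0.480, Men1 with 1.57 ± 0.647, Kmt2c with 1.42 ± 0.104, Setd1b with 1.31 ± 0.225 and Ash2l with 1.29 ± 0.231. Lower levels per kilobase were found for Kmt2b (0.984 ± 0.136), Wdr5 (0.902 ± 0.284), Kmt2d (0.547 ± 0.0593) and Setd1a (0.543 ± 0.177). In an exact sign-change test within libraries (two-sided, adjusted over 9 neighbour pairs), no neighbours in this order differed past 0.05. The closest were Ash2l above Kmt2b and Wdr5 above Kmt2d, each in 7 of 8 libraries (adjusted p = 0.0703). Psip1 was above Kmt2a in 7 of 8 libraries (adjusted p = 0.141), with knockout 3 as the exception. Among all tested genes, Psip1 ranked at percentile 71.4 and Kmt2a at percentile 57.2 of levels per kilobase, and Kmt2d and Setd1a at 21.5 and 21.3.

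**Figure D3:**
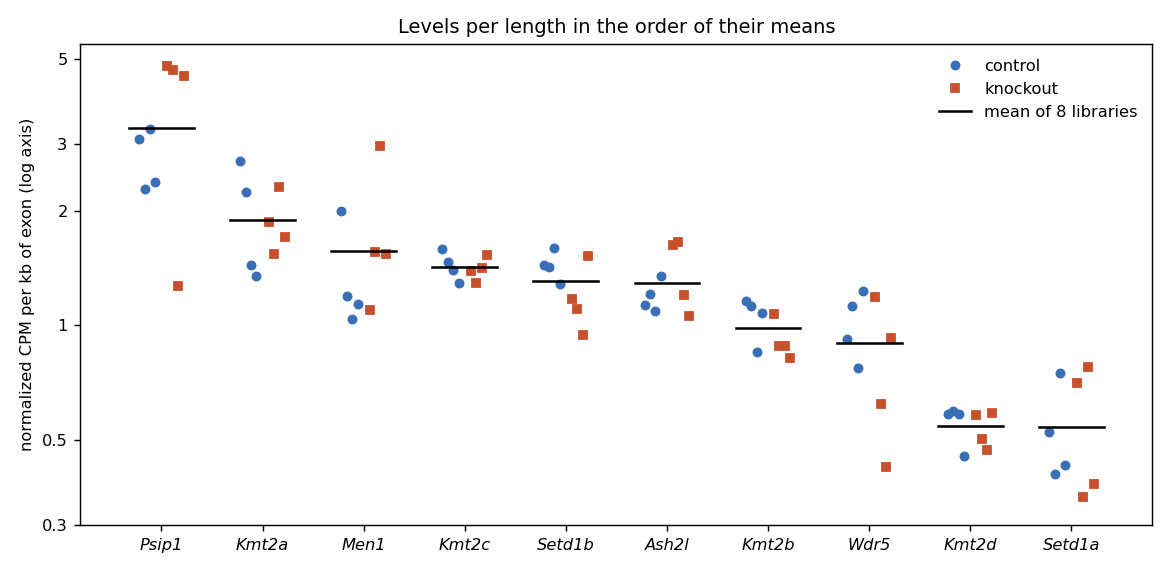
Normalized CPM per kb of exon (log axis) for the 10 genes in the order of their means, with circles for controls, squares for knockouts and a line for the mean of 8 libraries. Levels run from 3.29 for Psip1 to 0.543 for Setd1a, and neighbouring genes overlap.

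Ordered by the mean log2 level per kilobase within each genotype, Psip1 and Kmt2a held places 1 and 2 and Kmt2b, Wdr5, Kmt2d and Setd1a places 7 to 10 in controls and in knockouts alike. Setd1b was at place 3 in controls and 6 in knockouts, and Men1 at 5 and 3. The order depended on the length used. With the longest annotated transcript as length Ash2l moved from position 6 to 2 and Kmt2a from 2 to 4, and with the coding length Kmt2a was at position 6. Psip1 was first with each of these lengths. Setd1a rose to 1.14 when only its 3243 unshared exon bases were used as length, a choice made after seeing the data.

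In 2 of the 3 paralogue pairs 1 gene exceeded the other in every library with each length tried. Per kilobase, Kmt2a exceeded Kmt2b 1.89-fold (1.25 to 2.62 over 8 libraries) and Kmt2c exceeded Kmt2d 2.61-fold (2.39 to 3.00), each in 8 of 8 libraries. The exact sign-change test gave p = 0.0078 for each, the smallest value that 8 libraries can give, and 0.0078 adjusted over 3 pairs; this comparison was added after the levels had been seen. Both held with the longest transcript, the coding length and the unshared exon bases as length (8 of 8 libraries each). Setd1b exceeded Setd1a 2.50-fold on the whole exon length. With all counts kept and only the unshared bases as length, the excess was 1.19-fold (0.579 to 1.89, in 6 of 8 libraries, exact sign-change p = 0.25). Reads on unshared bases were not counted separately, so the order of this pair could not be settled.

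The question whether the make-up of the catalytic transcripts differed between genotypes was addressed with shares within each library, which need no scaling between libraries. Kmt2a made up 33.8%, 30.8%, 21.8% and 22.8% of the summed counts per length of the 6 methyltransferases in controls 1 to 4 and 27.4%, 27.1%, 34.0% and 26.0% in knockouts 1 to 4. The means were 27.3% ± 5.91 and 28.6% ± 3.63 (SD, n = 4) and did not differ past the threshold (exact permutation test, two-sided, p = 0.686, adjusted over 5 measures 0.857). The knockout minus control difference was -5.01 percentage points in the first run and 7.69 in the second. Kmt2c accounted for 19.8% to 23.3% in all 8 libraries.

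The summed level of the 6 methyltransferases was 6.94 ± 0.900 normalized CPM per kilobase in controls and 6.46 ± 0.529 in knockouts (exact permutation p = 0.371, adjusted 0.857). The difference was -1.39 in the first run and 0.42 in the second. The ratio of Kmt2a to Kmt2b was 1.77 in controls and 2.01 in knockouts (geometric means, exact permutation p = 0.457, adjusted 0.857), and the log2 difference was -0.31 in the first run and 0.68 in the second. That of Kmt2c to Kmt2d was 2.59 and 2.62 (exact permutation p = 0.914, adjusted 0.914), with all 8 libraries between 2.39 and 3.00. That of Setd1a to Setd1b was 0.358 and 0.448 (exact permutation p = 0.514, adjusted 0.857), with the reservation on shared bases given above. With 4 libraries against 4 the smallest p of this test is 0.0286.

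**Figure D4:**
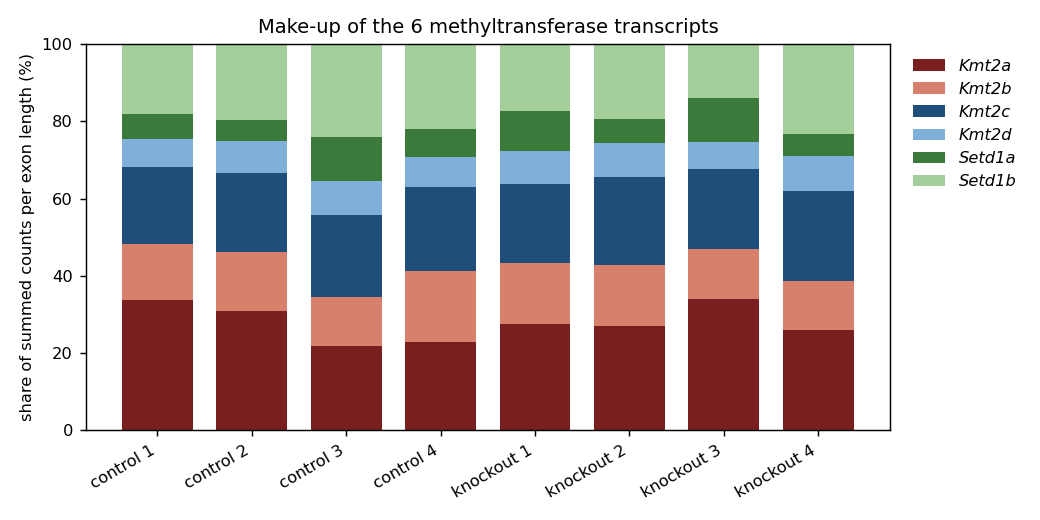
Share of each of the 6 methyltransferases in their summed counts per exon length (%) in each library, as stacked bars that add up to 100. The Kmt2a part runs from 21.8% (control 3) to 34.0% (knockout 3) and that of Kmt2c from 19.8% to 23.3%.

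The genes whose profile over the 8 libraries was most like that of Kmt2a were Mta2, Tbcb, Msl1, Ensa and Ehmt2. Their log2 profiles, each centred on its mean, differed from that of Kmt2a by a root mean square of 0.136 to 0.164, against a median of 0.455 over the 4328 genes compared and 0.325 for the spread of Kmt2a about its own mean. Among the members, Kmt2c ranked 165 in likeness, Kmt2d 440 and Psip1 4074. These genes share the libraries and their scaling with Kmt2a, and the likeness is a description.

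Related genes were taken from 9 lists of 56 genes: further subunits, relatives, demethylases, readers of the mark, H3K36 methyltransferases and known targets. Of these, 49 passed the filter, 0 were called and 0 passed a 10% false discovery rate, with 24 higher, 25 lower and a median log2 fold change of -0.01. An unadjusted p under 0.05 was reached by 3 of 49 (6.12%), near the 6.88% of all genes, and the genotypes did not overlap in 4 of 49 (8.16%), against 4.52%. DESeq2's Wald test and limma-voom each called 1 of the 49, Gata4, where they called 138 and 95 of all 13439 tested genes.

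Of the core subunits all 4 were tested, 3 higher and 1 lower, and none was called; the smallest unadjusted p were those of Hcfc2 (log2 fold change 0.30) and Dpy30 (-0.23), a small scaffold protein of all these complexes. Of the partners of Kmt2a and Kmt2b, 1 was higher and 2 lower, among them Tasp1 (-0.38), the protease that cleaves Mll1 into its mature fragments, and Hdgfl2 (-0.26), a relative of Psip1. Of the Kmt2c and Kmt2d subunits 3 of 4 were tested, with Ncoa6 at 0.08 and the X-linked H3K27 demethylase Kdm6a at -0.33. With the summed level of Y-linked genes as a covariate, Ncoa6 was at 0.23 and Kdm6a at -0.21. Pagr1a did not pass the filter. All 4 Setd1a and Setd1b subunits were above 0, between 0.09 and 0.18, with Bod1l at 0.18 and Bod1 at 0.13, and each of these values was smaller than its standard error. Of the relatives, Setd5 was at 0.29 and Kmt2e at -0.12.

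Demethylases of H3K4 were 3 higher and 3 lower, with the X-linked Kdm5c at -0.38 and Kdm5a at 0.22. With the summed level of Y-linked genes as a covariate, Kdm5c was at -0.15 and Kdm5a at 0.27. The Y-linked Kdm5d, named after its values were seen, was between 0 and 9.87 normalized CPM in controls and between 0.061 and 8.43 in knockouts, with 3.99 in knockout 3, the library with signals of both sexes. Readers of H3K4 methylation were 6 higher and 7 lower of 13 tested (Ing4 did not pass the filter). Among them Ing5 was at 4.51, 5.00, 3.59 and 4.34 normalized CPM in controls and at 6.24, 5.57, 10.9 and 7.95 in knockouts, every knockout above every control (log2 fold change 0.80 ± 0.28, unadjusted p = 0.0157, edgeR adjusted p = 0.538). Ing2 lay the other way, with every knockout below every control (-0.40, adjusted p = 0.849). Of the 5 H3K36 methyltransferases, whose mark the PWWP domain of Ledgf binds, 1 was higher and 4 lower, with Nsd3 at -0.30 and Setd2 at -0.22; Nsd3 did not overlap between genotypes (adjusted p = 0.798).

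Of the 13 known Mll1 and menin targets 8 passed the filter, 4 higher and 4 lower. Hoxa7, Hoxa9, Hoxa10, Meis1 and Eya1, which Mll1 regulates in blood cells and leukaemia, did not pass. Gata4 and Gata6, transcription factors of the intestinal epithelium, were listed because the study follows them, so that they are no independent choice. Gata4 was at 7.27, 8.73, 8.08 and 7.34 normalized CPM in controls and at 2.79, 2.70, 4.11 and 3.88 in knockouts. Every knockout was below every control in both runs. Its log2 fold change was -1.23 ± 0.26 with an edgeR adjusted p of 0.144, so it was not called. The adjusted p was 0.00204 with DESeq2, 0.0157 with limma-voom and 0.0249 with edgeR without knockout 3, and it lay between 0.00204 and 0.567 over 19 alternative fits, with the highest value without control 4 and knockout 4. Gata6, named after its values were seen, was at 31.0, 25.6, 32.2 and 30.7 in controls and at 28.7, 27.6, 19.7 and 22.0 in knockouts (-0.28, adjusted p = 0.864).

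Mecom, which encodes the transcription factor Evi1, was at 12.9, 17.9, 23.5 and 22.4 normalized CPM in controls and at 35.3, 40.3, 18.4 and 37.9 in knockouts. As for Psip1, knockouts 1, 2 and 4 were above every control, while knockout 3, whose sex signals were mixed, lay within the controls. Mecom had a log2 fold change of 0.79 ± 0.27 (edgeR adjusted p = 0.505) and, without knockout 3, one of 0.98 (adjusted p = 0.0408), a call that rested on leaving out this library.

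**Figure D5:**
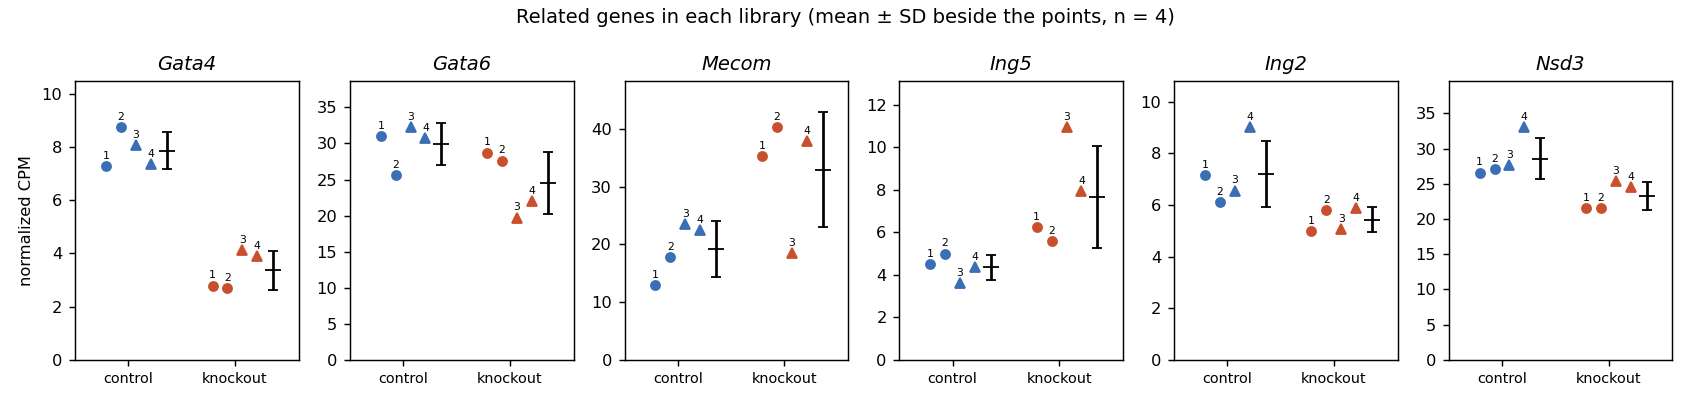
Level of 6 related genes in normalized CPM in each library, with controls in blue and knockouts in orange, replicate numbers above the points, circles and triangles for the 2 runs of label numbers, and mean ± SD (n = 4) as bars. Every knockout is below every control for Gata4, Ing2 and Nsd3 and above for Ing5, and knockout 3 lies apart from the other knockouts for Mecom.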

How the data were processed

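RNA of 8 samples of sorted Paneth cells was measured, 4 of each genotype, and the labels' genotypes define the groups. Replicates were numbered in accession order. The authors used GSNAP for alignment to mm10 and featureCounts 1.6.3 for counting unique reads over Ensembl genes, and the deposited values are raw counts without normalization. The strand setting is not given in the sources used here. The 92 spike-in rows were left out.

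TMM factors and edgeR 4.0.16 quasi-likelihood fits (robust) were computed in R 4.3.3 for 13439 genes that passed filterByExpr (minimum count 10, minimum total 15). Standard errors were approximated as the log2 fold change divided by the square root of F. Lengths are exon unions from the count table; transcripts, overlaps and primer matches come from GENCODE M21, in which all 10 genes have the same span. A count of 3 corresponds to 0.172 to 0.352 normalized CPM; such limits cover counting error only. The alternatives included DESeq2 1.42.0 and limma 3.58.1 (voom). Functions were tested on simulated data. No pair of libraries agreed within sampling noise.

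Named are all 10 members, 2 genes with the smallest p of each related list and the 5 genes most like Kmt2a with a mean of at least 10 normalized CPM. Outside this rule, Kdm5d, Gata6, some cell type markers, the overlapping genes and the listed genes that did not pass the filter are also named. The members, lists and tests were chosen with earlier results of these data known.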

Additional observations from a re-analysis of the deposited data

Results flagged for a closer look

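Within the 4 libraries of a genotype, 3 of 30 groups of values checked had a library far from the others by Dixon's criterion, where 1.5 are expected by chance. Kmt2d was at 9.08 normalized CPM in control 4 against 11.7 to 11.9 in the other controls. Men1 was at 6.89 normalized CPM in control 1 against 3.59 to 4.13. In knockouts 1, 2 and 4 Psip1 lay between 23.0 and 24.4 normalized CPM, and in knockout 3 at 6.46, the largest of the 3 gaps relative to the range.

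The genotype difference ran in opposite directions in the 2 runs of label numbers for 2 of the 10 genes, with no overlap within either run. For Kmt2a the log2 difference in the second run minus that in the first was 1.06 (edgeR interaction, adjusted p = 0.867), and for Kmt2c it was 0.32 (adjusted p = 0.907). Over all tested genes 837 (6.23%) showed such an arrangement, and 0 passed an adjusted p of 0.05 for the interaction.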

How the results depend on the processing

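No member was called in any of 19 alternative fits. Psip1 without knockout 3 alone passed a 10% false discovery rate. Some directions turned among members near 0, and the cause was not tested: with limma-voom Kmt2d was at 0.013 and Setd1a at -0.074, and with a Y-linked covariate Kmt2a was at 0.042, Kmt2c at 0.0066 and Setd1a at -0.12. Leaving out 1 library each, log2 fold changes ranged from -0.20 to 0.15 for Kmt2a, -0.082 to 0.023 for Kmt2c, -0.13 to 0.0065 for Kmt2d and -0.13 to 0.27 for Setd1a. Those of the other members kept their sign, from -0.29 to -0.15 for Kmt2b, -0.42 to -0.19 for Setd1b, 0.05 to 0.66 for Men1, 0.37 to 0.76 for Psip1, 0.12 to 0.32 for Ash2l and -0.60 to -0.15 for Wdr5. The difference in Kmt2a share ranged from -0.50 to 3.51 percentage points, and that in the log2 ratio of Kmt2c to Kmt2d from -0.047 to 0.063. That in the log2 ratio of Kmt2a to Kmt2b ranged from 0.018 (without control 4) to 0.32 (without control 1), and that in the summed level from -0.84 (without control 4) to -0.13 (without control 1). For Setd1a to Setd1b the range was 0.031 (without knockout 3) to 0.60 (without knockout 4). Related genes called were 1 with DESeq2's Wald test, 1 with limma-voom, and 0 to 2 on leaving out a library (2 without knockout 3, Gata4 and Mecom). Of all tested genes, DESeq2 called 138 and limma-voom 95 of 13439, and edgeR without knockout 3 called 152 of 14086. The main fit called 25 of 13439. Of the 9 neighbours in level, 3 pairs differed with the longest transcript as length and 4 with the coding length, where the order itself differs.

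No paired analysis was possible because the replicate numbers follow accession order and only control 4 and knockout 4 share an animal number, which makes fewer than 2 pairs. Leaving out both, chosen after seeing the data, gave 0 called members and 0 called related genes and turned no direction among the members. With the run of label numbers as a block, no member was called.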
